A study of Mus musculus with 8 samples.

Results

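The 8 genes described here encode transcription factors of the STAT and IRF families. They are Stat2, Stat3 and Stat6, and Irf1, Irf5, Irf7, Irf8 and Irf9. They were chosen by name, as 8 of the 32249 genes listed in the count tables, and all 8 had enough counts to be tested among 10422 genes. The cells came from the bone marrow of 10-week-old C57Bl/6J mice that the labels call male, and they were grown with M-CSF, a macrophage growth factor, for 3 days. There were 4 libraries of cells given 4 µg/mL of CYR61 for 24 h and 4 control libraries of cells cultured for the same time without it. CYR61 is a secreted matrix protein that binds integrins, and M-CSF was part of the culture in both groups. Single-cell RNA was captured in HIVE microwell arrays, and each RNA molecule was counted once through its molecular identifier (UMI). Whether replicates came from different animals is not stated in the labels, so p-values measure the spread between libraries, which may be technical in part. Each group held libraries high in Xist RNA and libraries high in Y-linked RNA, as given below. The libraries of a group thus do not look like repeats from the same animal alone.

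STAT proteins wait in the cytoplasm as inactive factors. Kinases of the JAK family, bound to cytokine receptors, phosphorylate them, and the phosphorylated dimers enter the nucleus. Type I interferon brings STAT2 and IRF9 together in a complex called ISGF3, which binds interferon-stimulated response elements (ISREs). The genes switched on in this way include those of the complex itself and Irf7, so the pathway feeds back on its own components. IRF7, IRF5 and IRF1 can also be activated or induced downstream of sensors of microbial nucleic acid, and IRF8 is a lineage factor of monocytes and dendritic cells.

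Cells needed 300 or more detected genes and no more than 20% mitochondrial UMIs. A barcode found in several libraries of a date stamp was then used in the one with most of its UMIs. These home-library cells numbered 9196 of 12848 kept cells, with 294 to 3604 per library, and held 842528 to 13933610 UMIs per library. Libraries were not fully separate before that step, since 6443 of the 12848 kept cells (50.1%) had a barcode that another library of the same date also listed. The files carry an earlier date stamp for replicates 1 and 2 of both groups and a later one for replicates 3 and 4. Against the label of male animals, Xist RNA stood at 1152 to 1249 CPM (UMIs of a gene scaled to the summed UMIs of its library) in 4 libraries, namely CYR61 replicates 1 and 2 and control replicates 2 and 3. In the other 4 libraries Y-linked genes summed to 323 to 399 CPM and Xist was at most 1.16 CPM. Macrophage markers were present throughout, and their sum was 2641 to 2983 CPM in CYR61 libraries and 1719 to 2218 CPM in control libraries. B cell markers summed to 2.61 to 6.57 CPM with CYR61 and 8.97 to 36.8 CPM in controls. Megakaryocyte or platelet markers summed to 586 to 1359 CPM with CYR61 and 372 to 875 CPM in controls. The part of these cell type markers in the results was not tested. Markers of plasmacytoid dendritic cells, which are rich in IRF7 and IRF8, summed to at most 7.82 CPM in any CYR61 library and at most 3.99 CPM in any control library, with Klk1 at 0.

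The DNA just before the start of these genes is shown for Stat2, Irf1 and Irf8, where one of the searched motifs was found, and for Irf7, the gene with the largest fold change of the 8. Sequences are from RefSeq on GRCm38.p6, written 5′ to 3′ on the strand of the gene, and they end where the RefSeq transcript or the GENCODE gene begins. Capitals mark matches.
Stat2, chr10:128270248-128270497, plus strand: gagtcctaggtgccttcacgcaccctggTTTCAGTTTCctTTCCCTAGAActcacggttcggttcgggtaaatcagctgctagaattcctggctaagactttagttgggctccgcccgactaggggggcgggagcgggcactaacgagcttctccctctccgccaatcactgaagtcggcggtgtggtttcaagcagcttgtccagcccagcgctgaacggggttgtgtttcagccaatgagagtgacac
Irf7, chr7:141266482-141266674, minus strand: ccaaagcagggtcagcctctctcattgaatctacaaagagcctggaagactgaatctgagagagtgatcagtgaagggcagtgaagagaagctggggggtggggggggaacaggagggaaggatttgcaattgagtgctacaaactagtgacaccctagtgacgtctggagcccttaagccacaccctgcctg
Irf1, chr11:53769764-53770013, plus strand: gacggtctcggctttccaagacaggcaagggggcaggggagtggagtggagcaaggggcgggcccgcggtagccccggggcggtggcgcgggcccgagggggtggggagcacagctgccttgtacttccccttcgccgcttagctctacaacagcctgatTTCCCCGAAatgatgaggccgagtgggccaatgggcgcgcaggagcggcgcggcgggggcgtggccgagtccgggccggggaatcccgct
Irf8, chr8:120736108-120736357, plus strand: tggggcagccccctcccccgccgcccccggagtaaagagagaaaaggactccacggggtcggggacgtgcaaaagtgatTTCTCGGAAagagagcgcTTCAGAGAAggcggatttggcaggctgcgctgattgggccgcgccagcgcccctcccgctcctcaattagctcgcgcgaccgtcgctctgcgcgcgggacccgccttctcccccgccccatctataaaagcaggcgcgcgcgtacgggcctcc

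Both strands of the 250 bases before each RefSeq start were searched for 3 motifs. The ISRE core, GAAA and GAAA with any 2 bases between them, is read by ISGF3 and IRFs. It was found in 1 member, Stat2, on the minus strand and starting 222 bases before the start. The same letters occur in 2.98% of all 32851 RefSeq windows. The site of STAT dimers, TTCNNNGAA, was found in Irf1, 90 bases before the start, and in Irf8, 171 and 153 bases before it, and it occurs in 7.02% of all windows. The wider form preferred by STAT6, TTC and GAA with any 4 bases between them, was found in Stat2, next to the ISRE match but not overlapping it, and occurs in 5.85% of all windows. The 8 members had 11 windows, and no match was found in the printed or unprinted windows of Stat3, Stat6, Irf5, Irf7 or Irf9 before the RefSeq start. Both Irf9 windows lay wholly inside the GENCODE gene, so the DNA before that gene was not searched. A match describes these letters only, and no binding was measured.

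Of the 8 factors, 3 rose with CYR61 and none fell, with adjusted p under 0.05 over all genes tested. They were Stat2, Irf9 and Irf7, which were also the 3 members whose libraries did not overlap between the groups. Over all genes tested, 1.16% were called, 1.12% as higher and 0.0384% as lower, and 2.87% had every CYR61 library above every control library. The median log2 fold change was 0.51 over the 8 members and -0.02 over all genes tested. Members were picked with earlier results of these data known, so their count is a description of these genes and no evidence that the families as such moved.

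Stat2 (chromosome 10, 128270559 to 128292849) encodes the STAT that is specific to interferon signalling and carries the activation domain of ISGF3. It stood at 234, 216, 458 and 454 CPM in CYR61 replicates 1 to 4 and at 76.5, 78.1, 65.3 and 91.7 CPM in control replicates 1 to 4. All CYR61 libraries lay above all control libraries, and the libraries of the later date were higher than those of the earlier date in the CYR61 group alone. The means were 340 ± 134 CPM with CYR61 and 77.9 ± 10.8 CPM in controls (SD, n = 4 each). The log2 fold change was 2.15 (SE 0.28, edgeR quasi-likelihood test, adjusted p = 0.00103). Within the earlier date alone it was 1.66 and within the later date alone 2.50, and both passed (edgeR adjusted p = 0.0180 and 0.00163). In these fits 0.459% of genes (earlier date) and 0.887% (later date) were called higher, and 2 of the 8 members were, Stat2 and Irf7.

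Irf9 (chromosome 14, 55603571 to 55610030) encodes the DNA-binding subunit of ISGF3. Its level was 77.9, 78.6, 104 and 93.1 CPM in CYR61 replicates 1 to 4, against 50.9, 45.9, 48.7 and 29.9 CPM in control replicates 1 to 4. The groups did not overlap. Control replicate 4, with 30 Irf9 UMIs, lay below the other controls, which had 45.9 to 50.9 CPM. Means were 88.5 ± 12.7 CPM with CYR61 and 43.8 ± 9.51 CPM in controls (SD, n = 4 each), a log2 fold change of 1.03 (SE 0.22, edgeR adjusted p = 0.0409). The call had little margin: it was lost when any of the 8 libraries was left out (adjusted p from 0.0580 to 0.163) and within either date alone (adjusted p = 0.0936 and 0.287), while the log2 fold change stayed between 0.80 and 1.30 in those fits. Without the 2382 of 9196 home-library cells that carried 3 or more UMIs of another type's markers it was 0.59 (adjusted p = 0.794). Of the removed cells, 245 reached that number by neutrophil markers. Deep cells reach it more easily, so the removed cells are not shown to be of another type. Exons of Irf9 overlap those of Rnf31 on the same strand, and Rnf31, a ubiquitin ligase subunit, had a log2 fold change of 0.57 (adjusted p = 0.866). How reads in the shared part were counted is not given in the sources used here, so the level of Irf9 is uncertain to that extent.

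Irf7 (chromosome 7, 141262706 to 141266481) encodes the factor that amplifies type I interferon production once cells have been primed. In CYR61 replicates 1 to 4 it had 199.7, 166, 695 and 762 CPM, and in control replicates 1 to 4 it had 20.95, 28.9, 8.31 and 14.96 CPM. The lowest CYR61 library was above the highest control library, and the later CYR61 libraries stood well above the earlier ones. The means were 456 ± 317 CPM with CYR61 and 18.3 ± 8.75 CPM in controls (SD, n = 4 each). The log2 fold change was 4.63 (SE 0.55, edgeR adjusted p = 0.000533). These levels rest on 7544 UMIs in the CYR61 libraries and 128 UMIs in the control libraries. Phrf1 overlaps Irf7 on the opposite strand and had a log2 fold change of -0.01 (adjusted p = 0.9999), and the sources used here do not say whether counting used strand.

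**Figure D1:**
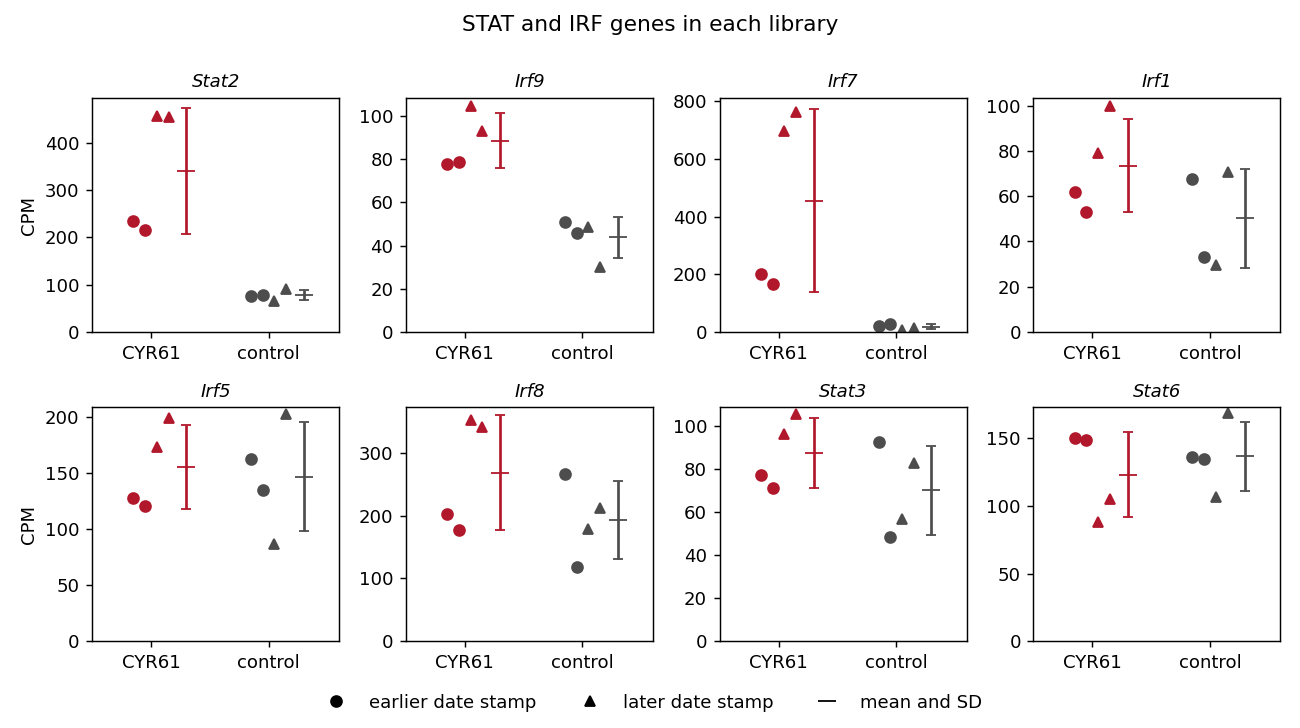
Each panel plots 1 gene in CPM of home-library cells, with CYR61 libraries at the left and control libraries at the right. Circles are libraries of the earlier date stamp, triangles those of the later one, and bars give mean and SD (n = 4). Stat2, Irf9 and Irf7 do not overlap between the groups, and for Irf7 the CYR61 libraries split into 166 and 199.7 CPM for the earlier date and 695 and 762 CPM for the later date.

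The split of Irf7 by date was tested as an interaction of CYR61 with the date stamp. At the earlier date the means were 183 CPM with CYR61 and 24.9 CPM in controls, a 7.34-fold ratio. At the later date they were 729 CPM with CYR61 and 11.6 CPM in controls, a 62.6-fold ratio. The control means rest on 72 and 34 Irf7 UMIs at the earlier date and on 7 and 15 at the later date. The later ratio is thus the less precise. The fitted log2 fold change was 3.05 for the earlier date and 5.91 for the later date, each past the threshold in its own fit (edgeR adjusted p = 0.0178 and 5.45e-05). The interaction was 2.91 on the log2 scale (SE 0.41, unadjusted p = 2.54e-05) and did not pass over all genes (edgeR adjusted p = 0.207). Without control replicate 4 it passed, at 3.41 (edgeR adjusted p = 0.0328), and in the other leave-one-out fits it did not pass, at 2.55 to 3.14. In all kept cells it was 0.87 (unadjusted p = 0.285, edgeR adjusted p = 0.805). The interaction test called 0 of 10422 genes (0% called), with 1055 at an unadjusted p under 0.05, and without control replicate 4 it called 278. DESeq2 was not run for the interaction. For the other 7 members the interaction lay between -0.77 (Stat6) and 0.88 (Stat2), with adjusted p from 0.437 to 0.787.

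Several measures moved with the date among CYR61 libraries. Both earlier ones were Xist libraries and both later ones Y libraries, so the date and that split cannot be told apart there. The median cell had 1286 and 1595 UMIs in CYR61 replicates 1 and 2, and 789 and 804 UMIs in CYR61 replicates 3 and 4. The neutrophil markers Ngp, Ltf, Camp, Elane, Mpo and Retnlg, mostly granule genes, had a summed level of 60.4 and 38.0 CPM in the earlier CYR61 libraries, and 795 and 286 CPM in the later ones. Control libraries ranged from 65.3 to 422 CPM for that sum, and all 6 markers were detected. The part of depth and of the Xist split in the Irf7 difference was not tested.

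IRF1 is an early interferon gamma target that drives antigen presentation genes, and Irf1 (chromosome 11, 53770014 to 53778374) did not pass. It had 61.9, 53.0, 79.2 and 99.7 CPM in CYR61 replicates 1 to 4 and 67.5, 33.1, 29.7 and 70.8 CPM in control replicates 1 to 4, with overlapping groups. The log2 fold change was 0.54 (SE 0.32, edgeR adjusted p = 0.915). IRF5 relays signals of Toll-like receptors to inflammatory cytokine genes. Irf5 (chromosome 6, 29526625 to 29541871) had 128, 120.5, 173 and 198 CPM with CYR61 and 163, 135, 86.6 and 202 CPM in controls. All CYR61 libraries lay within the control range, and the log2 fold change was 0.10 (SE 0.26, adjusted p = 0.9999).

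Irf8 (chromosome 8, 120736358 to 120756694) had 202, 177, 352 and 342 CPM in CYR61 replicates 1 to 4 and 266, 118, 178 and 211 CPM in control replicates 1 to 4. The later CYR61 libraries were above every control, while the earlier ones lay among the controls. The log2 fold change of 0.48 did not pass (SE 0.29, adjusted p = 0.921), and it was 0.06 within the earlier and 0.80 within the later date.

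STAT3 carries signals of interleukin 6 and interleukin 10. Stat3 (chromosome 11, 100885098 to 100939540) had 77.3, 71.1, 96.6 and 106 CPM with CYR61 and 92.5, 48.4, 57.0 and 82.8 CPM in controls (log2 fold change 0.33, SE 0.25, adjusted p = 0.9797). The earlier CYR61 libraries lay inside the control range and the later ones above it. STAT6 carries signals of interleukin 4 and interleukin 13, which drive alternative activation of macrophages. Stat6 (chromosome 10, 127642986 to 127660957) was the member with a negative log2 fold change, -0.11 (SE 0.22, adjusted p = 0.9999). Its values were 149.9, 149, 87.9 and 105 CPM with CYR61 and 136, 134, 107 and 169 CPM in controls. The earlier CYR61 libraries were above their controls and the later ones below theirs. Exons of Stat3 overlap Stat5a, those of Stat6 overlap Nab2 and those of Irf5 overlap Tnpo3, each on the opposite strand, so these levels share the limit named for Irf7, as does that of Irf1 with Gm17334. Exons of Irf8 overlap Gm20388 on the same strand, and Gm20388 has no row in the count tables, so the level of Irf8 is uncertain as that of Irf9 is.

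**Figure D2:**
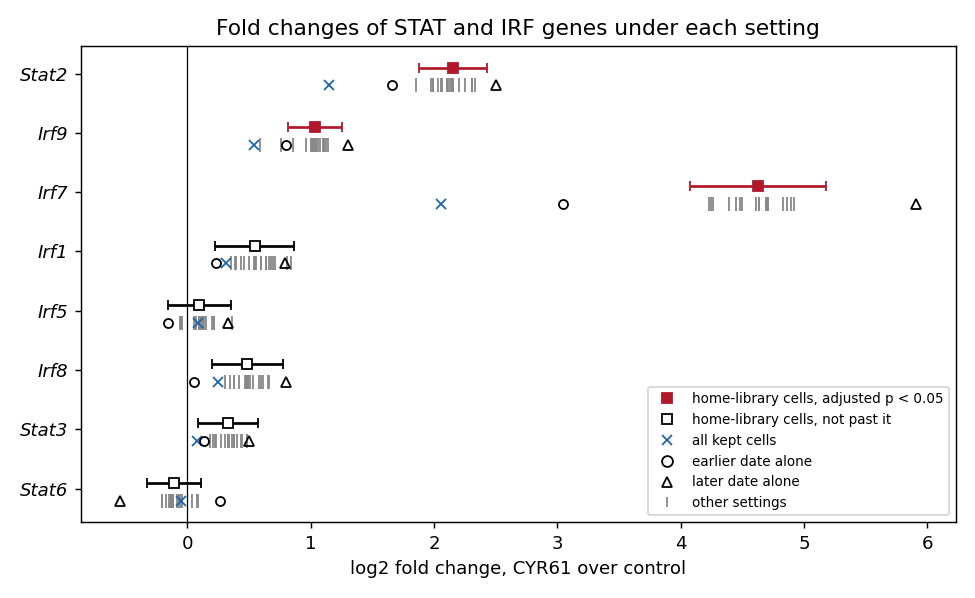
Squares give the log2 fold change of each gene in home-library cells with its SE (filled where adjusted p was under 0.05). Symbols below each square give the fold change in all kept cells, within each date alone and under the other settings. Irf7 and Stat2 lie right of 1 under every setting shown, and the lowest value of Irf7, 2.06, is that of all kept cells.

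Among the 5 members that did not pass, 4 followed the Xist split. For Stat3, Irf1, Irf5 and Irf8, 4 of the 8 members, the Y libraries were above the Xist libraries within both groups, and the reverse held for 0 members. Of the 10422 genes tested, 1356 had the Y libraries above within both groups and 1460 had them below. Among CYR61 libraries the Xist split is also the split by date, so the pattern cannot be credited to either there. This comparison was chosen after the data were seen and is a description of 8 libraries. With the split as a term in the fit, the CYR61 effect on Irf1 was 0.64 (edgeR adjusted p = 0.119) and on Irf8 0.48 (adjusted p = 0.185), and none of the 5 passed.

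Keeping every cell in every library gave smaller differences for Stat2, Irf9 and Irf7. In all kept cells Irf7 had 182, 161, 563 and 758 CPM in CYR61 replicates 1 to 4, against 21.3, 103, 110 and 158 CPM in control replicates 1 to 4. The CYR61 libraries still lay above the controls for Stat2, Irf9 and Irf7. How many of all genes did so in these cells was not counted. The log2 fold changes were 1.15 for Stat2, 0.54 for Irf9 and 2.06 for Irf7, and none of the 8 members passed (edgeR adjusted p = 0.9999 for each, with 0% of 11148 genes called and 279 at an unadjusted p under 0.05). DESeq2 was not run on these cells. UMIs of barcodes that had more UMIs, or as many, in another library of the date made up 76.1% of control replicate 2, 24.2% of control replicate 3 and 27.4% of control replicate 4. In control replicate 1 that share was 1.29%. From home-library cells to all kept cells, Irf7 went from 20.95 to 21.3 CPM in control replicate 1 and from 28.9 to 103 CPM in control replicate 2. It went from 8.31 to 110 CPM in control replicate 3 and from 14.96 to 158 CPM in control replicate 4. Control replicates 3 and 4 share their date with the CYR61 libraries higher in Irf7, so control levels are not comparable across dates in this respect. The part of these barcodes in the Irf7 levels was not tested. When a barcode was used only if it passed the cell filter in a single library of its date, Irf7 had a log2 fold change of 4.83 and Stat2 one of 1.86 (edgeR adjusted p = 0.000155 and 0.00162), while Irf9 at 0.86 did not pass (adjusted p = 0.395, with 1.13% of 7954 genes called higher).

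The share of cells with a UMI was measured next. Each cell was thinned at random to 1000 UMIs, and shallower cells were left out, which kept 194 to 2488 cells per CYR61 library and 149 to 481 per control library. An Irf7 UMI was then found in 12.98%, 14.0%, 49.5% and 50.0% of cells of CYR61 replicates 1 to 4, against 1.04%, 1.81%, 0.671% and 0.905% of cells of control replicates 1 to 4. The 95% Wilson intervals, which cover counting error alone, ran from 11.1% to 15.1% in CYR61 replicate 1 and from 45.1% to 54.9% in CYR61 replicate 4. The highest upper bound in a control library was 5.18%, in replicate 2. Before thinning, 41.2% ± 12.1 of CYR61 cells and 4.36% ± 2.13 of control cells had an Irf7 UMI (SD, n = 4 each).

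A Stat2 UMI was found in 25.3% ± 8.08 of thinned CYR61 cells and 7.78% ± 3.25 of thinned control cells, and an Irf9 UMI in 8.89% ± 2.68 of CYR61 and 3.63% ± 1.496 of control cells (SD, n = 4 each). The groups did not overlap for these 2 genes and Irf7, as for 3.52% of all genes tested in the same direction. The other 5 members overlapped. The mean share with an Irf8 UMI was 21.9% ± 5.87 in CYR61 and 14.7% ± 5.59 in control libraries. Before thinning, Stat2 was found in 36.5% ± 1.97 of CYR61 and 14.1% ± 1.99 of control cells, Irf9 in 17.0% ± 3.05 of CYR61 and 8.28% ± 1.93 of control cells, and Irf8 in 32.8% ± 0.840 of CYR61 and 24.4% ± 5.86 of control cells. Unthinned, the groups also did not overlap for Irf8, and how many of all genes did so unthinned was not counted.

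No cell type that lacks these factors was available, so the share that free RNA gives in CYR61 libraries was not measured, and all shares include it. Control libraries, with less of these RNAs, do not measure it. Cells with at least 3 UMIs of neutrophil granule genes were set beside the others, although deep cells reach that number more easily (median 3312.5 UMIs in 152 CYR61 cells and 9532 UMIs in 93 control cells, against 1259 UMIs in the other CYR61 and 949.5 UMIs in the other control cells). In CYR61 replicate 3, 17 of 41 thinned granule-gene cells (41.5%, 95% Wilson interval 27.8% to 56.6%) had an Irf7 UMI, and so did 79 of 153 other cells (51.6%, 43.8% to 59.4%). In CYR61 replicate 4 it was 21 of 43 granule-gene cells (48.8%) and 180 of 359 other cells (50.1%). The shares of both kinds of cell had overlapping intervals in these libraries. In control replicate 1, after thinning, 0 of 61 granule-gene cells had an Irf7 UMI, which allows a share of cells with a UMI of up to 5.92% by the Wilson interval. Before thinning, the granule-gene cells of all control libraries held 42 Irf7 UMIs (24.2 CPM) and the other control cells 86 (18.2 CPM).

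**Figure D3:**
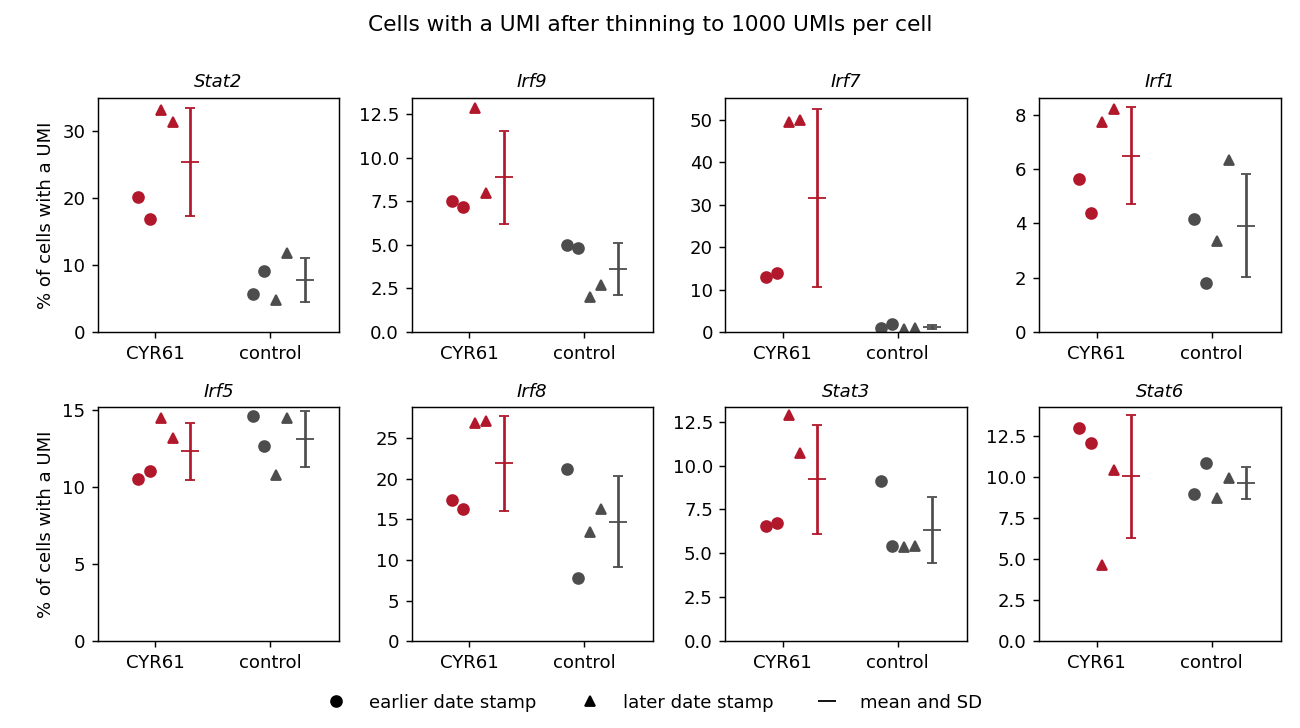
Each panel plots, for 1 gene, the percentage of home-library cells with at least 1 UMI after each cell was thinned to 1000 UMIs, with CYR61 libraries left and control libraries right. Circles and triangles mark the earlier and later date, and bars give mean and SD (n = 4). Irf7 was found in 12.98% to 50.0% of CYR61 cells and in at most 1.81% of control cells.

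Detection of the 3 genes in the same cells was compared within libraries, as a description. In CYR61 replicates 1 to 4, Irf7 was present in 12.9%, 14.1%, 46.9% and 51.6% of cells with a Stat2 UMI, and in 12.99%, 14.0%, 50.8% and 49.3% of cells without one. The differences went both ways and were small beside the gap between dates. Stat2 was present in 29.8%, 21.2%, 32.0% and 40.6% of cells with an Irf9 UMI in CYR61 replicates 1 to 4, and in 19.3%, 16.4%, 33.1% and 30.5% of cells without one. It was more frequent beside Irf9 in 3 of 4 CYR61 libraries and less frequent in 3 of 4 control libraries, which had 3 to 24 cells with an Irf9 UMI. Irf7 was present in 9.52%, 15.1%, 48.0% and 37.5% of cells with an Irf9 UMI in CYR61 replicates 1 to 4, and in 13.3%, 13.9%, 49.7% and 51.1% of cells without one. This pair was less frequent together in 3 of 4 CYR61 libraries, and CYR61 replicates 3 and 4 had only 25 and 32 cells with an Irf9 UMI. Most positive cells held 1 UMI: after thinning, 168 of 4201 CYR61 cells had 2 or more Irf7 UMIs, and 1 of 1017 control cells did.

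By the likeness of their centred log2 CPM over the 8 libraries, the genes closest to Stat2 were Ifi204, Bst2 and Mndal (root mean squared differences of 0.17, 0.22 and 0.22 on the log2 scale). Ifi204 and Mndal belong to a family of nuclear DNA sensors and Bst2 encodes tetherin, which holds budding viruses at the cell surface. Closest to Irf7 were Il1b, Ifit3b and Gbp6, at 0.47, 0.55 and 0.55, genes with few or no UMIs in the controls. Closest to Irf9 were Adar, Exog and Zcchc2, at 0.16, 0.18 and 0.20, none of which passed over all genes (edgeR adjusted p = 0.117, 0.847 and 0.199).

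Of 6 further STAT and IRF genes examined, 4 could be tested. None of these passed by edgeR, and 0 had an unadjusted p under 0.05. Irf2, which competes with IRF1, had a log2 fold change of 0.38, Irf3, the constitutive partner of IRF7, -0.03, Stat5a -0.44 and Stat5b -0.35, with adjusted p from 0.847 to 0.9999. Stat4 and Irf4 had too few counts to be tested. Stat4 had 37 UMIs in CYR61 and 4 in control libraries, and Irf4 had 23 UMIs in CYR61 and 0 in control libraries. These raw counts are not on one scale, since CYR61 libraries held 26734969 UMIs in all and control libraries 6459768. The Irf4 UMIs were 14, 9, 0 and 0 in CYR61 replicates 1 to 4.

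Genes upstream of the factors were examined by list. Of 19 interferon ligand genes, 4 are listed in the count tables, and 3 of these had any UMI in home-library cells. The other 15 have no row in these tables and were not analysed here. Ifnb1 had 2 UMIs in CYR61 and 1 in control libraries, Ifna6 had 1 in CYR61 and 0 in control libraries, and Ifnk had 0 in CYR61 and 1 in control libraries. Ifng, the gene of interferon gamma, had none in either group. For a listed gene, a count of 0 over a group allows up to 0.112 CPM with CYR61 and 0.464 CPM in controls, the level of 3 counts. None of 18 receptor and JAK kinase genes passed, with log2 fold changes from -0.52 for Jak3 to 0.83 for Il2rg and a median of 0.29. None of 16 tested adaptors and kinases upstream of the IRFs passed either, with a median of 0.18 and the highest value, 1.39, for Tlr3, a sensor of double-stranded RNA. With a term for the Xist split, 1 receptor or JAK kinase gene rose.

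Beside 1.12% of all genes tested that rose and 0.0384% that fell, 1 of 14 tested feedback inhibitors rose and none fell. It was Usp18, which encodes the protease that removes ISG15 and blocks the interferon receptor. Usp18 had 30.8, 27.3, 54.8 and 57.5 CPM in CYR61 replicates 1 to 4 and 1.75, 0, 5.93 and 2.99 CPM in control replicates 1 to 4, so the groups did not overlap. The control levels of Usp18 rest on 14 UMIs, and it had enough counts for the test only through the CYR61 libraries. Its log2 fold change was 4.20 (SE 0.60, edgeR adjusted p = 0.00216), and in all kept cells it was 1.59 and did not pass (adjusted p = 0.9999). The median of this list was 0.05.

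Known targets of single factors were counted next. Of 12 tested IRF1 targets, 5 rose and none fell, beside 1.12% of all genes that rose, and the median log2 fold change was 1.02. The 5 calls became 0 in all kept cells, 1 at the earlier date alone, 3 without cells carrying markers of another type, 10 with a term for the Xist split and 2 without control replicate 2, control replicate 3 or CYR61 replicate 4. Without control replicate 1 or control replicate 4 there were 3. Gbp2 and Gbp3, which encode guanylate-binding proteins, averaged 69.0 ± 14.3 and 55.3 ± 6.46 CPM with CYR61 and 11.2 ± 8.30 and 3.41 ± 2.46 CPM in controls (log2 fold changes 2.59 and 3.86, edgeR adjusted p = 0.00451 and 0.000422, n = 4 each). Tap1, Tapbp and B2m, of the MHC class I pathway, had log2 fold changes of 1.45, 1.11 and 0.98 (edgeR adjusted p = 0.0197, 0.0197 and 0.0385). Gbp2 and Gbp3 had enough counts for the test only through the CYR61 libraries, so the count of 5 is partly set by the filter. B2m was outside the naming rule and named after its values were seen. As background, interferon also induces these 5 genes through ISGF3.

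Of the 8 IRF5 targets, 3 could be tested, and 2 of them rose, beside 1.12% of all genes tested. Both had enough counts for the test only through the CYR61 libraries, so being tested already required high counts there. The count of 2 is thus partly set by the filter and is a description only. Ccl5, a chemokine for T cells and monocytes, had 18.96, 36.4, 52.2 and 55.1 CPM in CYR61 replicates 1 to 4 and 0.291, 8.49, 0 and 0 CPM in control replicates 1 to 4. Control replicate 2 held 10 of the 11 control UMIs. The log2 fold change was 4.40 (SE 0.83, edgeR adjusted p = 0.0197), and 7.60 without control replicate 2. The call was lost without any one of control replicates 1, 3 and 4 and CYR61 replicate 4 (adjusted p from 0.0576 to 0.101). Il1b, the gene of interleukin 1 beta, had 8.59, 4.52, 13.9 and 43.3 CPM in CYR61 replicates 1 to 4, or 309 UMIs, and 2 UMIs in the control libraries. CYR61 replicate 4 held 162 of the 309 UMIs. The ratio of pooled levels was 37.3 (exact 95% interval 10.2 to 309.6, counting error alone), and 20.6 without CYR61 replicate 4 (5.62 to 172), 62.1 without CYR61 replicate 2 and 61.0 without control replicate 2. Il1b passed (edgeR adjusted p = 0.0161), but not without any one of the control replicates (adjusted p from 0.0512 to 0.126), and without CYR61 replicate 1 or 4 it had too few counts for the test. Neither gene passed in all kept cells (adjusted p = 0.9999). None of 12 STAT3 targets, 6 STAT6 targets and 9 IRF8 targets passed, with median log2 fold changes of 0.19, -0.04 and 0.28. In other settings, 1 IRF8 target rose with DESeq2 and 1 with cells of at most 10% mitochondrial UMIs. With no filter on low counts 2 IRF8 targets rose, as did 2 with a term for the Xist split. For STAT3, 1 target rose with that term and 1 without control replicate 2. Of the 15 STAT6 targets listed, 9 had too few counts for the test.

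**Figure D4:**
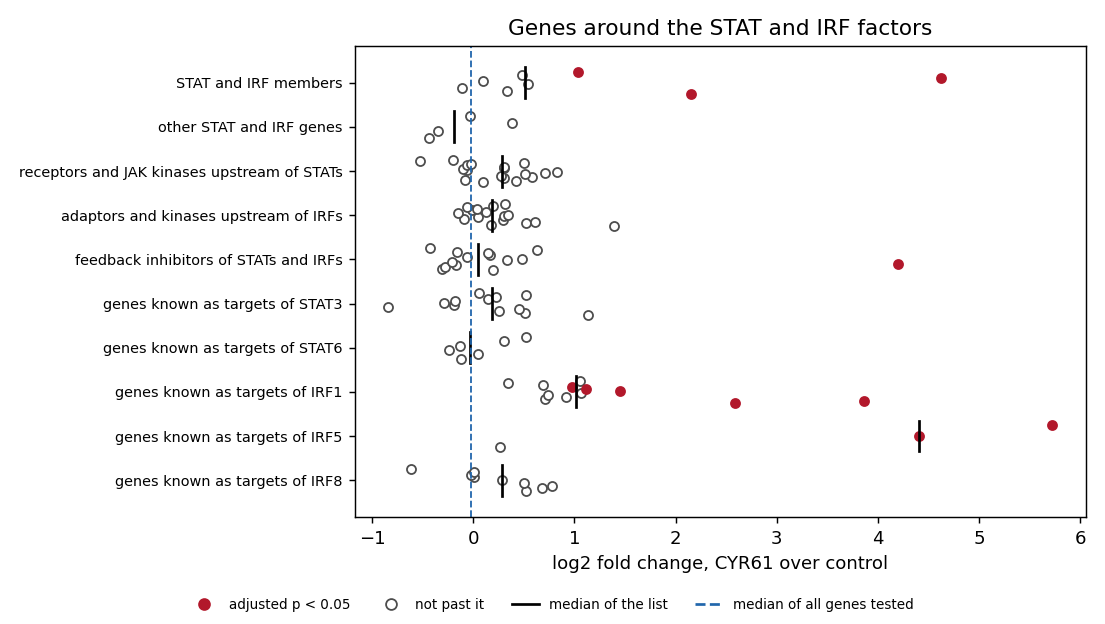
Each point is the log2 fold change of 1 tested gene, grouped by list, with filled points past an adjusted p of 0.05. Black bars are list medians and the dashed line is the median of all genes tested. Filled points occur among the members (Irf7, Stat2 and Irf9), the feedback inhibitors (Usp18), 5 IRF1 targets and 2 IRF5 targets.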

How the data were processed

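The authors deposited raw UMI counts per gene and cell barcode, 5000 barcodes per library, on genome build mm10 per the submitters' processing notes. No source used here gives the aligner, counter, annotation, strand setting or cell calling. Totals were 1379637 to 16318946 UMIs per library. Counts of home-library cells were summed per library. No doublet caller was run. edgeR 4.0.16 in R 4.3.3 tested all genes past filterByExpr with TMM factors, the quasi-likelihood test and Benjamini-Hochberg adjustment, CYR61 being the sole term. SE is the log2 fold change over the square root of F. DESeq2 1.42.0 was an alternative. On simulated data of this comparison (10422 genes, 200 changed 4-fold), the test recovered 84.5% with 6 false calls. Cells, members and gene lists were chosen with earlier results of these data known. Named genes were all members, the other STAT and IRF genes, up to 4 called genes per list and direction, and the 3 nearest genes of each called member. Positions are GENCODE vM21 on mm10. Thinning and shares used numpy 2.4.6 and scipy 1.17.1 in Python 3.11.15. Intervals cover counting error alone. Some genes of the lists are not reported here and were left out of list counts.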

Additional observations from a re-analysis of the deposited data

Results flagged for a closer look

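Stat6 had log2 fold changes of opposite sign at the dates. At the earlier date each CYR61 library was above both controls, with a log2 fold change of 0.26, and at the later date each was below both controls, with -0.54. Neither passed within its date (edgeR adjusted p = 0.386 and 0.822). The difference was tested as an interaction and did not pass (-0.77, SE 0.35, edgeR adjusted p = 0.495). How many of all genes tested separated in opposite directions at the dates was not counted. No library of any member stood apart from the other 3 of its group by Dixon's criterion.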

How the results depend on the processing

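Stat2 and Irf7 rose in 22 of 23 alternative fits each, all but that of all kept cells, with log2 fold changes of 1.15 to 2.50 for Stat2 and 2.06 to 5.91 for Irf7. Irf9 passed in 7 of 23, with 0.54 to 1.30, and was lost with cells of at most 10% mitochondrial UMIs, with cells thinned, without cells carrying markers of another type and with the replicate number as a block. Stat3, Stat6, Irf1, Irf5 and Irf8 passed in none of their 23. The 121 genes called were 216 with DESeq2 (179 higher, 37 lower), 239 with no filter on low counts, 231 with a term for the Xist split (199 higher, 32 lower) and 0 in all kept cells, and 74 to 127 with 1 library left out, the lowest without CYR61 replicate 4. Of the members, 3 passed among home-library cells, 2 in every leave-one-out fit and 0 in all kept cells. Of the reported genes on other lists, 8 passed, against 14 with no filter, 17 with the split as a term, 5 without cells carrying markers of another type, 2 at the earlier date alone, 0 in all kept cells and 3 to 8 with 1 library left out (3 without control replicate 3 or CYR61 replicate 4). The interaction called 0 to 278 genes with 1 library left out, 278 of them without control replicate 4. Values that did not pass changed sign. Irf5 was -0.045 without cells carrying markers of another type, -0.061 with thinned cells, -0.15 at the earlier date alone and -0.055 to 0.37 with 1 library left out. Stat6 was 0.039 with no filter, 0.26 at the earlier date alone and -0.21 to 0.087 with 1 library left out. With 1 library left out, the interaction ran from -0.22 to 0.75 for Stat3 and from -0.11 to 1.37 for Irf1. The causes were not tested. Replicate numbers did not clearly pair the libraries, since deviations of same-numbered libraries correlated at -0.20, 0.32, -0.09 and 0.31. CYR61 replicates 1 and 2 correlated best with control replicate 2, and CYR61 replicates 3 and 4 with control replicate 4. Same-numbered libraries were on the same side of the Xist split for numbers 2 and 4 alone, so pairing and that split cannot be told apart here. With the replicate block 112 genes and 2 members passed, and the interaction called 0. Depth limits low genes, since control replicate 3 held 842528 UMIs and 7 of Irf7.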
